A study of Mus musculus with 9 samples.

Results

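The aldo-keto reductase genes described here are Akr1a1, Akr1b3, Akr1b7, Akr1b8, Akr1c12, Akr1c13, Akr1c14, Akr1c18, Akr1c19 and Akr7a5, 10 of the 24570 named genes on the arrays. Each was found through its Entrez Gene number, all 10 had a probe set, and 9 passed the filter on low levels, Akr1b7 being the exception. The family was selected on an earlier result of these same arrays, in which Akr1b8 stood among the largest rises of the knockdown groups over control. Comparisons of these genes with control are therefore given as descriptions with no test. Tests are given for the difference between the hairpins, which uses no control array for its estimate. That difference still reuses the hairpin arrays in which Akr1b8 stood out, and its spread is estimated with the control arrays included. It is thus not independent of the selection, least of all for Akr1b8.

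Aldo-keto reductases are barrel-shaped cytosolic enzymes that use NADPH to reduce aldehydes and ketones to alcohols. Their substrates include sugars, steroids, retinaldehyde, prostaglandins and the reactive aldehydes released from oxidised lipids. In the gut they are known mainly for clearing carbonyl compounds that come with food or arise from lipid peroxidation, and for local steroid and retinoid metabolism.

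The series asks how gene expression in the large intestine differs when DHX9, an RNA and DNA helicase, is reduced. Groups of 3 arrays each came from DHX9-837 mice, from DHX9-1271 mice, and from control mice with a hairpin (FLuc.1309) against firefly luciferase, a gene that mice lack. All mice, controls included, were shRNA/rtTA animals on a C57BL/6 background, so that doxycycline switched their hairpin on through the activator rtTA. Every group drank 1 mg/ml doxycycline in 5% sucrose water over 14 days, beginning at 4 weeks of age. The promoter that drives rtTA, and so the cells that made the hairpins, is not given in the sources used here. Nor do the labels say that replicates were separate animals. The p-values here therefore refer to the spread among these arrays, which may be technical.

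Dhx9 had log2 levels of 8.19 to 8.22 in DHX9-837 arrays and 8.18 to 8.27 in DHX9-1271 arrays, against 9.18 to 9.32 in control arrays. Dhx9 was thus lower in every hairpin array than in any control array, and the hairpin groups differed by -0.021 on the log2 scale, with a 95% interval of -0.14 to 0.093. All 10 markers of large intestine epithelium were bright over the 9 arrays, with mean log2 levels of 10.2 to 13.1, and none was absent. Markers of small intestine varied between arrays of the same group: the sucrase-isomaltase gene Sis read 9.04, 5.37 and 10.5 in DHX9-837 arrays, 6.49, 4.81 and 6.20 in DHX9-1271 arrays, and 4.60, 8.79 and 7.46 in control arrays. In whole tissue, fewer cells of a type and less RNA per cell cannot be told apart. Array medians lay between 6.24 and 6.28. With 3 arrays in a group, precision is limited by their number.

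Within the family, every hairpin array was above every control array for Akr1b8. The DHX9-837 arrays stood above all others for Akr1c18 and below all others for Akr1c14 and, by a narrow margin, Akr1a1. The share of all genes whose arrays separate in these ways is not given here, so these separations are descriptions only. A call means an adjusted p under 0.05 in limma's moderated test, with Benjamini-Hochberg adjustment over all 17199 genes tested. In DHX9-837 against control, 2 members were called higher and 1 lower of 9, beside 8.79% higher and 7.03% lower among all genes tested. In DHX9-1271 against control, 1 member was called higher and 0 lower, beside 2.87% and 1.6%. With both hairpins against control, 1 was higher and 1 lower, beside 8.2% and 5.43%. These counts against control are printed only to be complete, and nothing is read from them, because the family was selected on these comparisons. The median log2 fold of the 9 members was -0.10 for DHX9-837, -0.068 for DHX9-1271 and -0.088 for both hairpins, beside -0.0012, 0.0061 and 0.0013 for all genes tested.

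**Figure D1:**
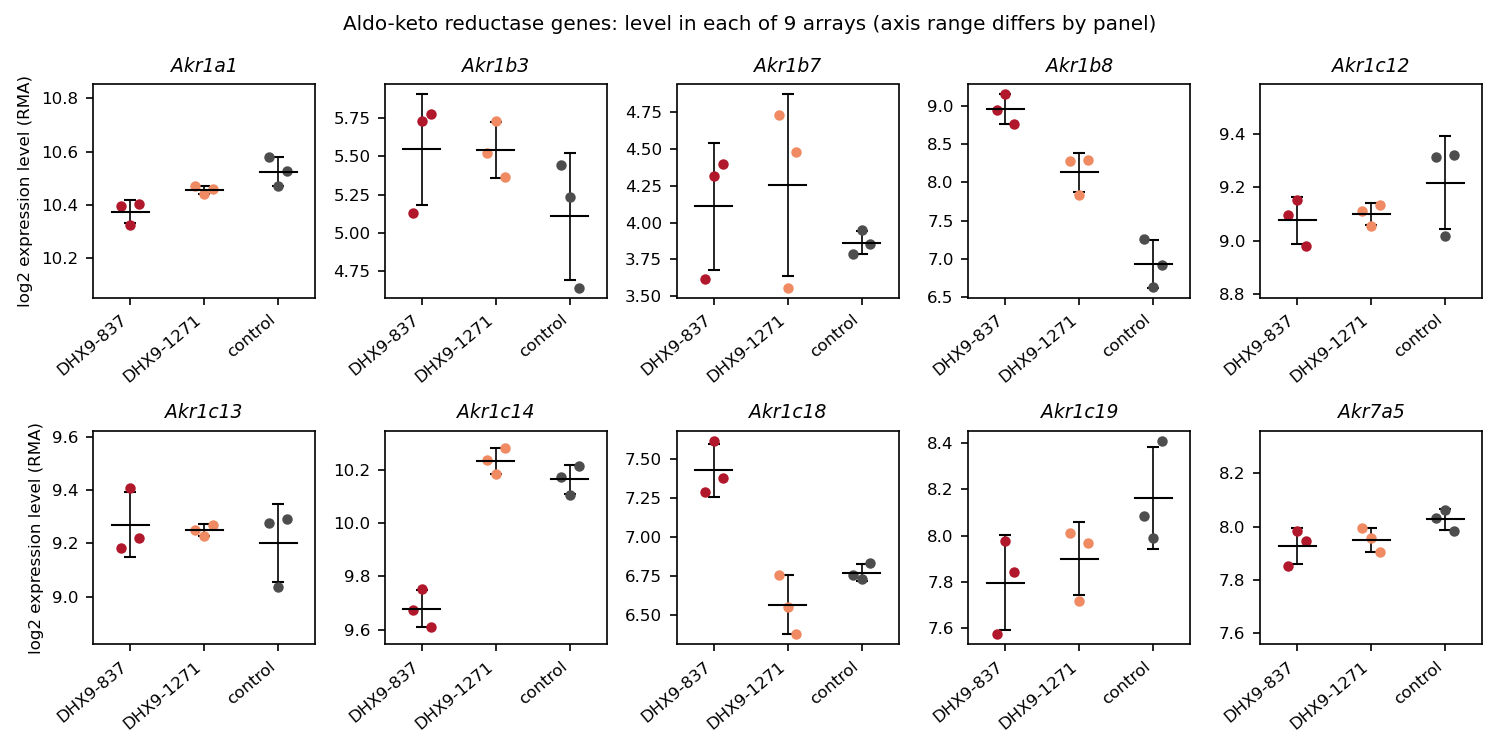
Log2 expression level (RMA) of each of the 10 genes in every array, with points for single arrays, a horizontal line for the group mean and bars for the SD of 3 arrays; the axis range differs by panel. Akr1b8 falls in 3 separate bands, Akr1c14 has only its DHX9-837 arrays low, Akr1c18 has only its DHX9-837 arrays high, and the groups of Akr1b3, Akr1b7 and Akr1c13 overlap.

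Akr1b8 encodes an aldose reductase-like enzyme that reduces aliphatic aldehydes and retinaldehyde and is usually compared with human AKR1B10. Its log2 level was 8.96, 9.16 and 8.77 in DHX9-837 arrays, 8.28, 7.83 and 8.29 in DHX9-1271 arrays, and 7.25, 6.62 and 6.92 in control arrays. No 2 groups overlapped: every DHX9-837 array lay above every DHX9-1271 array, and every DHX9-1271 array above every control array. Over control, the log2 fold was 2.03 for DHX9-837 (SE 0.18, 95% interval 1.62 to 2.44), which is 4.09-fold. For DHX9-1271 it was 1.20 (SE 0.18, 95% interval 0.79 to 1.62), or 2.30-fold. With both hairpins together the log2 fold was 1.62 (SE 0.16), which put the gene at rank 7 from the top of 17199. Over the 19 alternatives, the log2 fold lay between 1.88 and 2.19 for DHX9-837 and between 1.05 and 1.37 for DHX9-1271.

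Markers of several stromal and immune cell types were also higher with both hairpins. For B and plasma cells 6 of 8 markers were called higher (median log2 fold 0.63), for macrophages 4 of 6 (0.38) and for fibroblasts 2 of 6 (0.20). Among all genes tested, 8.2% were called higher. All lists were chosen with earlier results of these data known, so these counts are descriptions. Every marker of these lists had a log2 fold above 0, called or not. The mean level of the B and plasma cell markers was 8.03 to 8.45 in DHX9-837 arrays, 7.93 to 8.52 in DHX9-1271 arrays and 7.61 to 7.74 in control arrays. That of the macrophage markers was 8.16 to 8.18 in DHX9-837 arrays, 7.90 to 8.07 in DHX9-1271 arrays and 7.73 to 7.80 in control arrays. Fibroblast markers averaged 9.28 to 9.42 in DHX9-837 arrays, 9.35 to 9.46 in DHX9-1271 arrays and 8.98 to 9.30 in control arrays. The mean of the macrophage markers thus ranks the groups as Akr1b8 does, although Adgre1, C1qa and Cd68 overlapped between DHX9-1271 and control arrays. Of the 6 macrophage markers, 0 were called between the hairpins, beside 0.698% higher and 1.21% lower among all genes tested. The part of these cell types in the level of Akr1b8 was not tested.

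The promoter window of Akr1b8, 250 bases before its start and 50 after, lies at chr6:34353896-34354195 on the plus strand (RefSeq, GRCm38.p6). It is shown because this gene changed most among the 10, with the match to a TATA box core in capitals.
Akr1b8: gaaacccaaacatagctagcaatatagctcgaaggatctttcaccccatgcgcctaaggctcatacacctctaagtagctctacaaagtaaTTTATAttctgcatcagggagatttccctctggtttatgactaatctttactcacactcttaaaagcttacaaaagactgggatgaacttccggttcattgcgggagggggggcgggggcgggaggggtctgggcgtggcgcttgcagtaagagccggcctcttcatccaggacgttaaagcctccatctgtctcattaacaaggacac
The window was searched on both strands for the antioxidant response element core TGACNNNGC, the AP-1 element TGANTCA, which can overlap it, and the TATA box core TATAAA. These letters occurred in 12.4%, 7.81% and 13.6% of 32851 mouse promoter windows of the same length. Akr1b8 held 1 TATA box core, on the reverse strand and 159 bases before the start, and neither of the other motifs. A missing match says only that these letters are not in this window.

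The difference between hairpins was tested directly. Of 9 members, Akr1c18 was called higher and Akr1c14 lower in DHX9-837 than in DHX9-1271, beside 0.698% of all genes called higher and 1.21% lower, while the log2 level of Dhx9 differed by -0.021 between the same groups. Akr1b8 was 1.77-fold higher in DHX9-837 (log2 difference 0.83, SE 0.18, 95% interval 0.42 to 1.24) but missed the threshold in limma's test, with an adjusted p of 0.0605. Over the 19 alternatives its adjusted p ranged from 0.0393 to 0.164, and 5 of them called it.

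**Figure D2:**
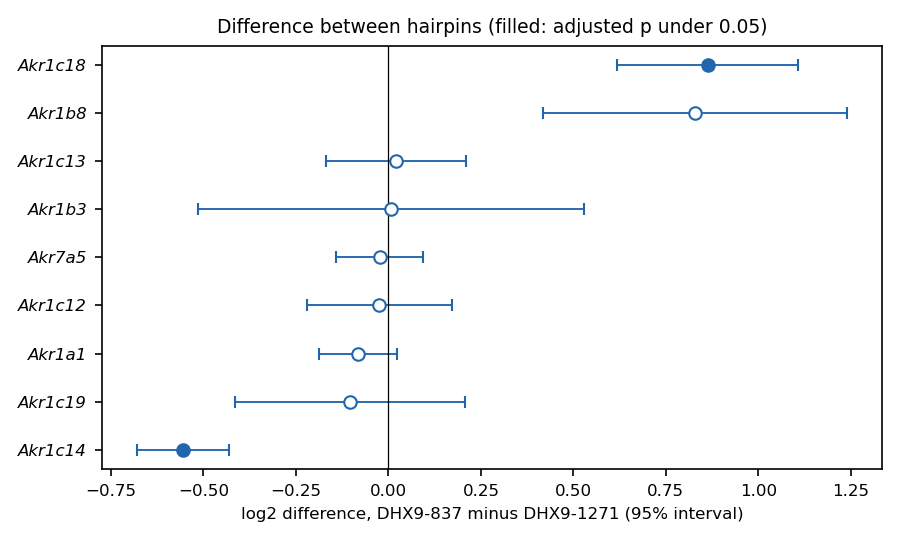
Log2 difference, DHX9-837 minus DHX9-1271, for the 9 tested aldo-keto reductase genes, with 95% intervals; filled points had an adjusted p under 0.05. Akr1c18 (0.86) and Akr1c14 (-0.55) are filled, Akr1b8 (0.83) is open with an interval above 0, and the other intervals cross 0.

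Akr1c14 encodes a hydroxysteroid dehydrogenase that reduces dihydrotestosterone and dihydroprogesterone to their tetrahydro forms. Its log2 level was 9.67, 9.75 and 9.61 in DHX9-837 arrays, 10.24, 10.18 and 10.28 in DHX9-1271 arrays, and 10.17, 10.11 and 10.21 in control arrays. The DHX9-837 arrays lay below all others, and the DHX9-1271 and control arrays overlapped. DHX9-837 was lower than DHX9-1271 by a log2 difference of -0.55 (SE 0.055, 95% interval -0.68 to -0.43, limma adjusted p = 0.00409), a ratio of 0.681. All 19 alternatives kept this call, with adjusted p from 0.000512 to 0.038. Against control, the log2 fold was -0.48 for DHX9-837 (SE 0.055) and 0.070 for DHX9-1271 (SE 0.055). The pooled fold of both hairpins, -0.21 (SE 0.047), is an average of these unlike values.

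Akr1c18 encodes a hydroxysteroid dehydrogenase that inactivates progesterone and is best known from the mouse ovary at the end of pregnancy. It read 7.29, 7.62 and 7.38 in DHX9-837 arrays, 6.76, 6.56 and 6.38 in DHX9-1271 arrays, and 6.76, 6.73 and 6.83 in control arrays. Again the DHX9-837 arrays stood apart, here above all others. DHX9-837 was 1.82-fold higher than DHX9-1271 (log2 difference 0.86, SE 0.11, 95% interval 0.62 to 1.11, limma adjusted p = 0.0108). Of the 19 alternatives, 18 kept the call; without DHX9-1271 replicate 3 the difference was 0.77 with an adjusted p of 0.0504 (0.00307 to 0.0504 over the alternatives). Against control, the log2 fold was 0.66 for DHX9-837 (SE 0.11, 1.57-fold) and -0.21 for DHX9-1271 (SE 0.11).

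Akr1c14 and Akr1c18 are neighbours on chromosome 13 with 0 protein-coding genes between them, on opposite strands, and they differed between the hairpins in opposite directions. Their windows are printed for that reason, Akr1c14 at chr13:4059341-4059640 on the plus strand and Akr1c18 at chr13:4150597-4150896 on the minus strand (RefSeq, GRCm38.p6), and neither held a match to the 3 motifs.
Akr1c14: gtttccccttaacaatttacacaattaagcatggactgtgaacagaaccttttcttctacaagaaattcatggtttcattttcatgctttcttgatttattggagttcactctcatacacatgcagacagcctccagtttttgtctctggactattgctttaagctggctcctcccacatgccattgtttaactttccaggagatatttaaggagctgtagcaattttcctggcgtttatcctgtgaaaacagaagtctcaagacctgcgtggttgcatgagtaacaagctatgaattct
Akr1c18: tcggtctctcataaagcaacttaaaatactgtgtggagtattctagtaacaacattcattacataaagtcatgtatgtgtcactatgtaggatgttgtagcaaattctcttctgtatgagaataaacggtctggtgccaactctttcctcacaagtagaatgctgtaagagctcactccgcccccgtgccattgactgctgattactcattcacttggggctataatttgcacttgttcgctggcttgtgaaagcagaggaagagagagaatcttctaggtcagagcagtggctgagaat
Aligned end to end, they were identical in 55.6% of 347 columns.

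Markers of another cell type moved between the same groups. Of 8 adipocyte markers, 6 were tested and 4 were called higher in DHX9-837 than in DHX9-1271, beside 0.698% of all genes tested. These were Fabp4, Cfd, Retn and Lpl (log2 differences of 0.46 to 1.04, limma adjusted p from 0.0306 to 0.0477). The mean log2 level of the 8 was 7.38 to 7.64 in DHX9-837 arrays, 6.62 to 6.94 in DHX9-1271 arrays and 6.75 to 7.29 in control arrays. Adipoq and Lep, which define adipocytes, were dim throughout and not tested, with group means of 5.74 and 5.37 in DHX9-837, 4.49 and 4.65 in DHX9-1271, and 4.92 and 5.00 in control. The mean of the 6 smooth muscle markers was 10.95 to 11.20 in DHX9-837 arrays, 11.25 to 11.39 in DHX9-1271 arrays and 11.17 to 11.36 in control arrays, with 0 of 6 called. Of 10 epithelial markers, 2 were called lower and 0 higher in DHX9-837 than in DHX9-1271, beside 1.21% and 0.698% of all genes tested. The 2 were the water channel gene Aqp8 (log2 difference -0.67, limma adjusted p = 0.0341) and the anion exchanger gene Slc26a3 (-0.36, adjusted p = 0.0189). The mean of the 10 epithelial markers was 11.45 to 11.54 in DHX9-837 arrays, 11.60 to 11.64 in DHX9-1271 arrays and 11.59 to 11.62 in control arrays. The part of these cell types in the aldo-keto reductase differences was not tested.

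The other 1C members stayed closer together. Akr1c12 and Akr1c13 encode closely related hydroxysteroid dehydrogenases, and Akr1c19 a further enzyme of the same subfamily. Akr1c12 read 9.10, 9.15 and 8.98 in DHX9-837 arrays, 9.11, 9.06 and 9.13 in DHX9-1271 arrays, and 9.31, 9.02 and 9.32 in control arrays. Akr1c13 read 9.18, 9.41 and 9.22 in DHX9-837 arrays, 9.25, 9.23 and 9.27 in DHX9-1271 arrays, and 9.28, 9.03 and 9.29 in control arrays. For both genes the groups overlapped, and control replicate 2 was the lowest control array. That array also had the highest mean of the 8 small intestine markers among controls (8.82). It was likewise the highest control array for adipocyte (7.29), smooth muscle (11.36), B and plasma cell (7.74), macrophage (7.80) and fibroblast markers (9.30). For large intestine epithelium markers it was the lowest control array (11.59). The part of any of these tissues or cell types in the levels of Akr1c12 and Akr1c13 was not tested. Without control replicate 2, the log2 fold of Akr1c12 was -0.24 for DHX9-837 and -0.23 for both hairpins. With all arrays it was -0.14 and -0.13 (SE 0.086 and 0.074). Between hairpins, Akr1c12 differed by -0.024 (95% interval -0.22 to 0.17, limma adjusted p = 0.94) and Akr1c13 by 0.021 (95% interval -0.17 to 0.21, adjusted p = 0.948).

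The promoter windows of this pair are near copies, identical in 93.4% of 304 aligned columns, with 12 columns substituted and 8 gapped; the next most alike pair, Akr1c13 and Akr1c19, reached 59.8%. They are shown because such copies may share array probes, and the probe definition is not given in the sources used here, so the separate values of Akr1c12 and Akr1c13 are uncertain. Capitals mark bases that differ or have no partner in the other window. Akr1c12 lies at chr13:4279350-4279649 on the minus strand and Akr1c13 at chr13:4190937-4191236 on the plus strand (RefSeq, GRCm38.p6).
Akr1c12: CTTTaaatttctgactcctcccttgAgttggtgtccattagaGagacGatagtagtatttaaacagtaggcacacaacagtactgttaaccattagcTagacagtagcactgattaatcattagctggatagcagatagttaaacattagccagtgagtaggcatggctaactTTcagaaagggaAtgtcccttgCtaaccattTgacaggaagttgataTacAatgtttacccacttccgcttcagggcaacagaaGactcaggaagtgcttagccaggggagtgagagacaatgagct
Akr1c13: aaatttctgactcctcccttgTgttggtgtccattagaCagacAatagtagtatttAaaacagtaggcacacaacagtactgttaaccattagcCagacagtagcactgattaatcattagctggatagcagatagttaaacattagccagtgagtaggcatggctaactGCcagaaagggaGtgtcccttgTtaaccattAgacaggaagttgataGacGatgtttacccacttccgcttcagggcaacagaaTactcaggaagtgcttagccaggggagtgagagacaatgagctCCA
Neither window held a match to the 3 motifs. Among the 9 members with a window, the only antioxidant response element core lay in that of Akr1c19, on the reverse strand and 8 bases after the start.

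Akr1c19 read 7.57, 7.97 and 7.84 in DHX9-837 arrays, 8.01, 7.72 and 7.97 in DHX9-1271 arrays, and 8.08, 7.99 and 8.41 in control arrays. All DHX9-837 arrays lay below all control arrays, by a narrow margin, while the DHX9-1271 arrays overlapped both. The log2 fold against control was -0.36 for DHX9-837 (SE 0.14) and -0.26 for DHX9-1271 (SE 0.14), and the hairpins differed by -0.10 (95% interval -0.41 to 0.21, limma adjusted p = 0.811).

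The single-gene branches on chromosome 4 varied least. Akr1a1 encodes aldehyde reductase, which in mice also serves vitamin C synthesis by reducing glucuronate. It read 10.40, 10.32 and 10.40 in DHX9-837 arrays, 10.47, 10.44 and 10.46 in DHX9-1271 arrays, and 10.58, 10.47 and 10.53 in control arrays. The DHX9-837 arrays were the 3 lowest, although the log2 fold against control was only -0.15 (SE 0.047). Akr7a5 encodes a reductase of aflatoxin dialdehyde and succinic semialdehyde. It read 7.85, 7.98 and 7.95 in DHX9-837 arrays, 7.99, 7.96 and 7.90 in DHX9-1271 arrays, and 8.03, 8.06 and 7.98 in control arrays, so its 3 groups overlapped. Between hairpins, Akr1a1 differed by -0.083 (95% interval -0.19 to 0.024, limma adjusted p = 0.484) and Akr7a5 by -0.023 (95% interval -0.14 to 0.094, adjusted p = 0.901).

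Akr1b3 and Akr1b7 were dim. Akr1b3 is mouse aldose reductase, which turns glucose into sorbitol, and Akr1b7 is an aldose reductase-like enzyme first described in the mouse vas deferens. Akr1b3 read 5.13, 5.73 and 5.77 in DHX9-837 arrays, 5.52, 5.73 and 5.37 in DHX9-1271 arrays, and 5.45, 5.24 and 4.64 in control arrays. Its groups overlapped, and its log2 folds of 0.44 for DHX9-837 and 0.43 for DHX9-1271 had standard errors of 0.23 each. Its mean of 5.40 was just above the filter level of 5.29. The control mean of 5.11 lay under that level, so Akr1b3 passed the filter through its hairpin arrays. The hairpins differed by 0.0062, with a wide interval of -0.52 to 0.53 (limma adjusted p = 0.997). Akr1b7 read 3.62, 4.32 and 4.39 in DHX9-837 arrays, 4.72, 3.56 and 4.48 in DHX9-1271 arrays, and 3.79, 3.95 and 3.86 in control arrays. The spread of Akr1b7 within each knockdown group covered the whole control range, and its mean of 4.08 was below the filter.

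Members with unlike values lay side by side on their chromosomes. On chromosome 6, Akr1b3, Akr1b8, Akr1b10 and Akr1b7 follow each other with 0 other protein-coding genes between neighbours, and only Akr1b8 had hairpin arrays all above the control arrays with both hairpins. On chromosome 13 the order is Akr1c14, Akr1c18, Akr1c13, Akr1c19 and Akr1c12, again with 0 between, and the pair called between the hairpins lies at one end.

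**Figure D3:**
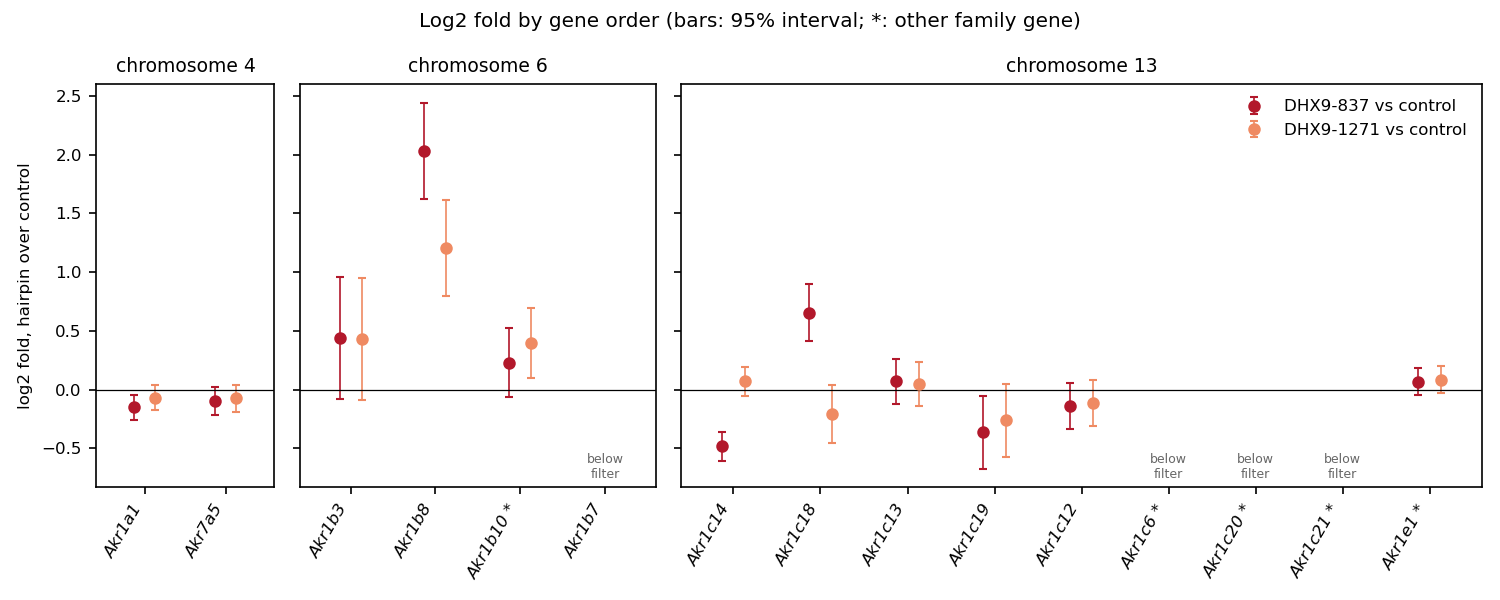
Log2 fold over control of DHX9-837 (dark) and DHX9-1271 (light) with 95% intervals, for aldo-keto reductase genes in their order along chromosomes 4, 6 and 13; an asterisk marks family genes outside the 10. Akr1b8 stands at 2.03 and 1.20, above its neighbours, and Akr1c14 (-0.48) and Akr1c18 (0.66) lie away from 0 for DHX9-837 while their DHX9-1271 intervals cross 0.

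Of 10 further genes of the superfamily, 4 were tested and 0 were called in any of the 4 comparisons. Among all genes tested, 0.698% to 8.79% were called in a given direction, so nothing is read from this count of 4 genes. Akr1b10, the neighbour of Akr1b8, read 7.39, 7.60 and 7.66 in DHX9-837 arrays, 7.81, 7.61 and 7.74 in DHX9-1271 arrays, and 7.06, 7.31 and 7.60 in control arrays. Its log2 fold with both hairpins was 0.31 (SE 0.11, limma adjusted p = 0.103), and without control replicate 3, the highest control array, it was 0.45 and called (adjusted p = 0.028, range 0.028 to 0.324 over 18 alternatives). Akr1e1, a reductase of anhydrofructose, had a log2 fold of 0.075 (adjusted p = 0.295). The potassium channel beta subunits Kcnab2 and Kcnab3, which share the fold of the family, had 0.051 and -0.027 (adjusted p = 0.669 and 0.817). Akr1c6, Akr1c20, Akr1c21, Akr1cl, Akr1d1 and Kcnab1 lay below the filter.

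Among other carbonyl reductases and the alcohol and aldehyde dehydrogenases, calls went in both directions. Of 15 other carbonyl reductases, 1 was called higher and 3 lower with both hairpins against control, beside 8.2% and 5.43% of all genes tested. The median log2 fold of the list was -0.015. Dhrs3, which reduces retinaldehyde, fell by 0.48 on the log2 scale (SE 0.057, limma adjusted p = 0.00147), and Dhrs11, a dehydrogenase of the same short-chain family, fell by 0.42 (SE 0.048, adjusted p = 0.00117). Dhrs4 fell by 0.21 (adjusted p = 0.0143), while Dhrs9, which can oxidise retinol, rose by 0.43 (adjusted p = 0.00969). Of 20 tested alcohol and aldehyde dehydrogenases, 1 was called higher and 3 lower beside the same shares, with a median of -0.087. Aldh18a1, which makes the precursor of proline, rose by 0.48 (SE 0.066, adjusted p = 0.00262), and Aldh4a1, which breaks proline down, fell by 0.35 (SE 0.063, adjusted p = 0.00828). Aldh9a1 (-0.38) and the retinaldehyde dehydrogenase gene Aldh1a1 (-0.31) fell too, with adjusted p of 0.0145 and 0.0466, the Aldh1a1 call being kept in 8 of 18 alternatives. For the genes of neither list was the difference between the hairpins called, beside 0.698% higher and 1.21% lower among all genes tested. Nothing is read from that absence.

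A few steroid enzymes differed between the hairpins. Of 17 tested steroid dehydrogenases and reductases, 1 was called higher and 3 lower with both hairpins (median -0.041), beside 8.2% and 5.43% of all genes. Between hairpins, 0 were called higher and 3 lower in DHX9-837 than in DHX9-1271, beside 0.698% and 1.21% of all genes. Hsd3b3, which oxidises steroids at the same carbon that Akr1c14 reduces, read 9.90, 10.25 and 9.88 in DHX9-837 arrays, 10.47, 10.48 and 10.58 in DHX9-1271 arrays, and 10.74, 10.74 and 10.80 in control arrays. Its levels formed 3 separate bands, lowest in DHX9-837, and the hairpins differed by -0.50 (SE 0.093, limma adjusted p = 0.0357). Hsd3b2, a close copy whose probes may not be separate, differed by -0.42 (SE 0.062, adjusted p = 0.0174). Srd5a2, the steroid reductase that makes dihydrotestosterone, differed by -0.55 (SE 0.10, adjusted p = 0.0398). All 3 calls were lost under some of the alternatives that leave out an array (5, 7 and 8 arrays in turn for Hsd3b2, Hsd3b3 and Srd5a2). With both hairpins against control, Hsd3b2 fell by 0.37 and Hsd3b3 by 0.50, Hsd17b13, a lipid droplet protein, fell by 0.68 (adjusted p = 0.0313), and Hsd11b2, which inactivates corticosterone, rose by 0.30 (adjusted p = 0.00866).

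Of 15 genes of prostaglandin synthesis and reception, 1 was called higher and 1 lower with both hairpins, beside 8.2% and 5.43% of all genes tested. The median with both hairpins was -0.0044. Between hairpins 0 were called, beside 0.698% higher and 1.21% lower among all genes. Hpgd, which inactivates prostaglandins, fell by 0.28 (SE 0.052, limma adjusted p = 0.00916). The prostaglandin E receptor gene Ptger4 rose by 0.43 (SE 0.088, adjusted p = 0.0133). Of 11 genes that supply NADPH, the cofactor of the family, 1 was called higher and 1 lower with both hairpins, beside 8.2% and 5.43%. The median of that list was -0.00077, and nothing is read from the counts of either list. The cytosolic malic enzyme gene Me1 rose by 0.64 (SE 0.13, adjusted p = 0.012), and the mitochondrial transhydrogenase gene Nnt fell by 0.41 (SE 0.080, adjusted p = 0.0119). Me1 read 8.65, 8.86 and 8.74 in DHX9-837 arrays, 8.11, 7.99 and 8.11 in DHX9-1271 arrays, and 7.50, 8.15 and 7.64 in control arrays, so only its DHX9-837 arrays were clear of control.

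NRF2 is a transcription factor known to switch on genes against oxidants and reactive aldehydes, several aldo-keto reductase genes among them in human cells. Of 16 tested targets, 5 were called higher and 1 lower with both hairpins, beside 8.2% and 5.43% of all genes tested. The median log2 fold of the 16 was 0.034 beside 0.0013 for all genes. Ephx1, a microsomal epoxide hydrolase, read 8.33, 8.32 and 8.33 in DHX9-837 arrays, 7.47, 7.72 and 7.54 in DHX9-1271 arrays, and 6.96, 7.13 and 7.18 in control arrays. The cystine transporter gene Slc7a11 read 6.78, 7.25 and 6.42 in DHX9-837 arrays, 5.72, 5.92 and 5.69 in DHX9-1271 arrays, and 4.98, 5.30 and 5.32 in control arrays, where its mean of 5.20 lay under the filter level of 5.29. In both genes the arrays formed 3 bands in the order seen for Akr1b8. With both hairpins Ephx1 rose by 0.87 (SE 0.067, limma adjusted p = 0.000229). Slc7a11, whose mean passed the filter through its hairpin arrays, had a log2 fold of 1.10 (SE 0.16), given as a description although it is 1 of the 5 counted. Between hairpins, Ephx1 was higher in DHX9-837 by 0.75 (SE 0.077, adjusted p = 0.00464) and Slc7a11 by 1.04 (SE 0.19, adjusted p = 0.0328). The Slc7a11 call was lost when any 1 of 6 arrays was left out.

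The other NRF2 targets called were smaller changes. The thioredoxin gene Txn1 rose by 0.26, the glutathione reductase gene Gsr by 0.20 and the exporter gene Abcc1 by 0.27 (limma adjusted p = 0.00791, 0.00977 and 0.0473), and Osgin1 fell by 0.24 (adjusted p = 0.0219). The other 10 tested targets were not called with both hairpins. Of these, Nqo1, Srxn1 and Ugdh had group means below control with each hairpin. Gclc, Gclm, Txnrd1 and Slc48a1 had means above control for DHX9-837 and below it for DHX9-1271. Hmox1, Prdx1 and Fth1 had means above control with each hairpin. Of the 16 tested targets, 12 had log2 folds over control above 0 for DHX9-837 (median 0.10) and 8 for DHX9-1271 (median 0.00058). In the direct comparison of the hairpins, 15 were higher in DHX9-837 and 1 lower (median 0.087). Of these, 2 were called higher and 0 lower, beside 0.698% and 1.21% of all genes tested. The part of NRF2 in these levels was not tested.

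**Figure D4:**
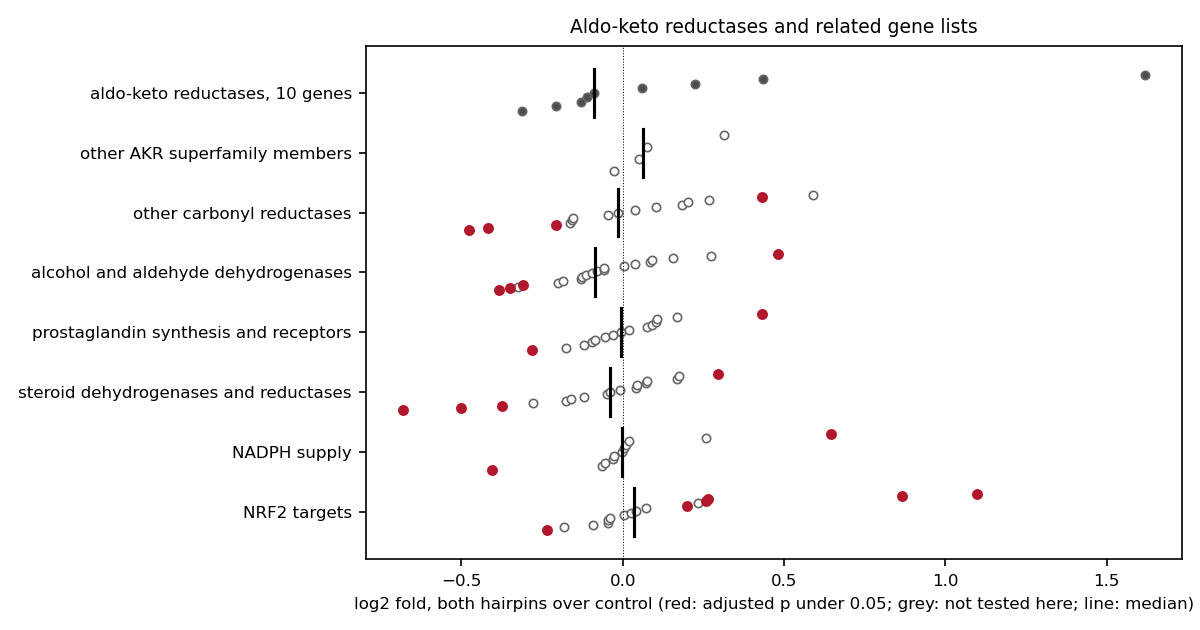
Log2 fold of both hairpins over control for each gene past the filter among the 10 aldo-keto reductases (grey, no test shown) and in the related lists; red points had an adjusted p under 0.05, open points did not, and the vertical line is the list median. Akr1b8 is the point at 1.62, beyond every gene of the other lists, and all list medians lie within 0.1 of 0.

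The genes whose arrays ran closest to Akr1b8 were found by the root mean square difference of log2 level minus control mean over the 9 arrays. They were Pnpla1 (0.299), Cldn8 (0.371), Sprr1a (0.379), Asns (0.389) and Ighg2b (0.411), where the median over all 17199 genes was 1.38. Most genes changed little, so that median largely restates the size of the Akr1b8 rise and is no benchmark of likeness. Pnpla1, a lipase-family gene of the skin barrier, had log2 folds of 1.65 for DHX9-837 and 1.28 for DHX9-1271, and the tight-junction gene Cldn8 had 1.68 and 1.08. Closest to Akr1c14 were Adra2a (0.0512), Ggh (0.0605), Hdac3 (0.0623), Mpp6 (0.0663) and Slc25a10 (0.0724), with a median over all genes of 0.306, which has the same limit. The adrenergic receptor gene Adra2a had -0.46 for DHX9-837 and 0.060 for DHX9-1271, and Ggh, a folate hydrolase gene, -0.51 and 0.030.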

How the data were processed

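The deposited values are log2 expression levels of 24973 probe sets on 9 arrays. Per the submitters' processing notes, the authors computed them by RMA in oligo 1.30.0 under R 3.1.1. RMA quantile-normalizes arrays, so a shift of most transcripts one way would not be seen. How probes were grouped into sets, and on which genome build, is not given in the sources used here. Groups came from the sample titles.

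Probe set identifiers equalled the Entrez Gene number in all 24015 probe sets that the platform's table lists. Of the 958 unlisted, 559 were named by that number in the RefSeq gene table (GRCm38.p6), Akr1b3 and Akr1b7 among them, and 399 stayed unnamed. The brightest probe set was kept per symbol, and genes under the 30th percentile of mean level (5.29) were left out, leaving 17199.

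Group means of all 9 arrays were fitted with limma 3.58.1 in R 4.3.3 (empirical Bayes without trend, 6 residual and 2.82 prior degrees of freedom). Two-sided p-values were adjusted by Benjamini-Hochberg over all genes tested, and the method was tested on simulated data. The 10 genes and all lists were chosen with earlier results of these data known. All 10 genes and the other superfamily genes were named, with up to 6 called genes of smallest p per list for both hairpins against control and up to 3 for the difference between hairpins. For the largest called rise and fall, the 5 genes of smallest root mean square difference were named. Promoter windows are RefSeq's, for 9 of the 10 genes (none for Akr1b3), and were aligned with Biopython 1.88. Alternatives covered the filter, probe sets per gene, centring, cyclic loess, moderation, the arrays compared alone, the replicate block and each array left out; naming by the platform table alone and leaving out genes with equal values in 2 or more arrays (45.2%) were chosen after seeing the data. Plots came from matplotlib 3.10.9 (Python 3.11.15).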

Additional observations from a re-analysis of the deposited data

Results flagged for a closer look

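For 7 genes of the family and the related lists, the effect of the hairpins relative to control differed between DHX9-837 and DHX9-1271 by limma's test of the difference itself. Akr1c14 differed by -0.55 and Akr1c18 by 0.86 on the log2 scale (DHX9-837 minus DHX9-1271). Among the steroid enzymes, Hsd3b2 differed by -0.42, Hsd3b3 by -0.50 and Srd5a2 by -0.55. Among the NRF2 targets, Ephx1 differed by 0.75 and Slc7a11 by 1.04. Of the marker genes, the adipocyte genes Fabp4, Cfd, Retn and Lpl differed by 0.88, 0.89, 1.04 and 0.46, and the epithelial genes Aqp8 and Slc26a3 by -0.67 and -0.36. Of the 7, Akr1c14 and Ephx1 kept this call under every alternative run (19 each), and each of the other 5 lost it under at least 1 alternative that left out an array. The 6 marker genes each lost it when any 1 of 4 to 7 arrays was left out. Groups of 3 arrays are too small for a search for single outlying arrays.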

How the results depend on the processing

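Counts of the aldo-keto reductase genes called against control carry no weight, since the family was selected on that comparison. No value that was called in the comparisons changed its sign under any alternative. Of 667 alternative values of the 9 tested aldo-keto reductase genes, 638 kept their direction and their side of the threshold, 13 uncalled values changed sign, 11 gained a call and 5 lost one. In DHX9-837 against control, 2721 genes were called, 1738 with the arrays compared alone and 1919 to 2630 when 1 array was left out. In DHX9-1271 against control, 768 were called (493 higher, 275 lower), 420 without a filter, 345 with the arrays compared alone, 418 with the replicate block and 148 to 729 without 1 array, lowest without DHX9-1271 replicate 3; cyclic loess split the calls into 433 higher and 377 lower. For both hairpins against control, 2344 were called, and 1422 to 2156 without 1 array, lowest without control replicate 1. Between hairpins, 328 were called, 146 without a filter, 508 with the filter at the median gene, 574 with trend and robust moderation, 174 with the replicate block and 32 to 375 without 1 array, lowest without DHX9-1271 replicate 3. Of the 10 aldo-keto reductase genes, 3 were called in DHX9-837 (3 to 5 without 1 array, 5 without control replicate 2), 1 in DHX9-1271 (0 to 1, 0 without DHX9-1271 replicate 3), 2 with both hairpins (1 with the replicate block, 1 to 3 without 1 array, 1 without control replicate 1 or 3) and 2 between hairpins (1 to 3, 1 without DHX9-1271 replicate 3). The cause of these shifts was not tested. Deviations of same-numbered arrays from their group means correlated between -0.38 and 0.27 across genes, so the numbers were not taken to pair samples. Of 22 named genes of the related lists called with both hairpins, 15 kept the call under every alternative run and 7 lost it without 1 array or, for some, under other settings: Dhrs4, Aldh9a1, Aldh1a1, Ptger4, Hsd17b13, Osgin1 and Abcc1. Akr1b3 and Akr1b7 lie near or under the filter level, where array signal limits what can be seen.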
